A study of Mus musculus with 8 samples.

Results

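JAK, STAT and SOCS signalling components were examined in mouse lung as 10 of the 24584 genes in the tables. They were picked by gene symbol for their role in the pathway: the kinases Jak1, Jak2 and Jak3, the transcription factors Stat3 and Stat5a, the inhibitors Socs1, Socs2, Socs3 and Cish, and the target gene Pim1. A cytokine that binds its receptor brings receptor-bound JAK kinases together, and these phosphorylate the receptor and then STAT proteins, which pair, enter the nucleus and switch on genes. SOCS1, SOCS2, SOCS3 and CIS, the product of Cish, are themselves made in response to STATs and block the receptor or the kinase, so that their mRNA is often used as a readout of recent cytokine signalling. In the lung after lipopolysaccharide (LPS), IL-6 family cytokines act mainly through STAT3.

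Lung RNA was sequenced in 4 samples from mice given LPS and 4 samples from mice given tangeretin, a citrus flavonoid, and LPS (LPS + Tan). All were male ICR mice of 6 to 8 weeks, labelled as wild type and given LPS from Escherichia coli intraperitoneally at 5 mg/kg, with lungs taken 12 h later. The LPS + Tan mice received tangeretin at 50 mg/kg 30 min before LPS, and what the LPS mice received in its place is not given in the sources used here. Mice without LPS and mice given tangeretin alone were not analysed here, so that the comparison is between LPS-treated lungs with and without tangeretin and does not show what LPS induced. Each sample had between 38895654 and 39931970 counts on genes. Lung markers were abundant in every sample, with Sftpc, a surfactant protein gene, at 4144 to 8616 FPKM (counts scaled by gene length and sample depth), while the liver genes Alb and Apoa2 had 5 to 26 and 0 to 10 counts.

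None of the 10 members passed a threshold for a difference between LPS + Tan and LPS. All 10 passed the count filter, which left 15706 genes, and were read out of one edgeR quasi-likelihood test over all of these. At an adjusted p below 0.05 the test called 0 of 10 members and 0 of 15706 genes (0%), where DESeq2 called 35 genes and 0 members, and the lowest adjusted p of a member was 0.924. The thresholds of the study were an unadjusted p below 0.05 together with a log2 fold change beyond 1 in size, and by these 0 members were higher, against 0.35% of all tested genes, and 0 were lower, against 0.299%. Without the fold change threshold 0 members were higher, against 2.87% of genes, and 0 lower, against 2.25%, which makes 5.12% in both directions. The balance over all genes depended on the scaling, with 451 higher and 353 lower here and 653 higher and 239 lower when counts were scaled to sample totals alone. Between the groups, CPM (counts scaled to sample depth by the TMM method of edgeR) overlapped for all 10 members, where 2.73% of genes had groups that did not overlap. The log2 fold change was negative for 9 members and positive for Stat5a alone, with a median of -0.19, where all tested genes had a median of 0.0070 and 48.2% negative values. With counts scaled to sample totals alone, Cish was positive as well and the medians were -0.15 for the members and 0.049 for all genes, of which 36.8% were negative. In bulk lung, fewer cells of a type and less RNA per cell cannot be told apart in any of these values.

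**Figure D1:**
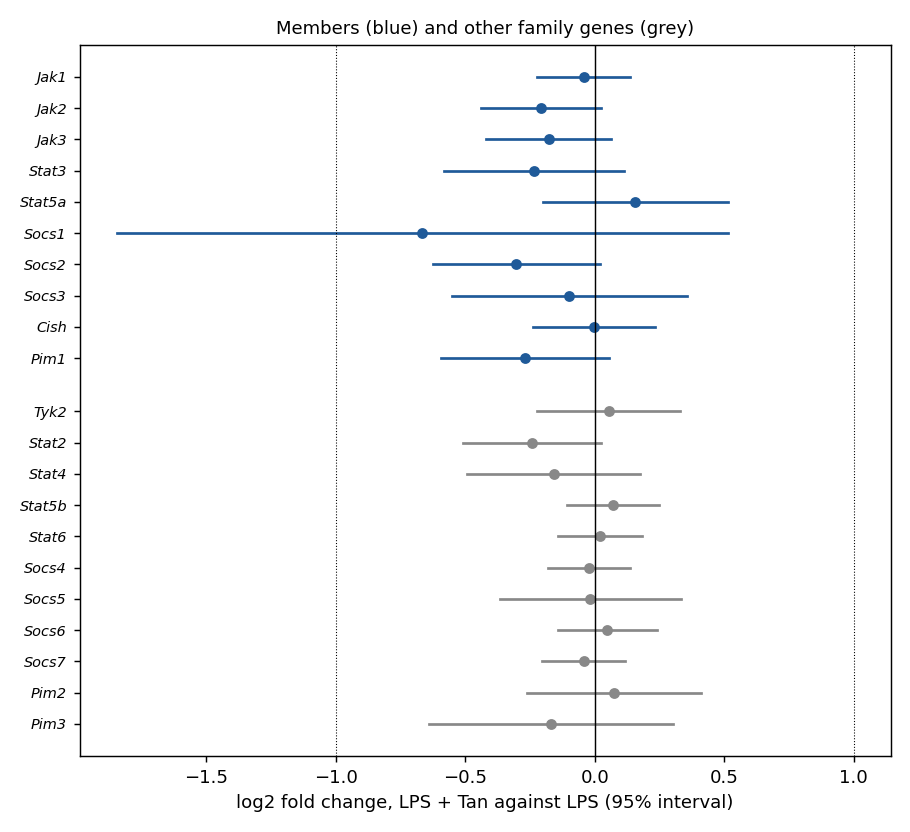
Log2 fold changes of LPS + Tan against LPS from the edgeR fit (points) with 95% intervals (lines) for the 10 members in blue and 11 other genes of their families in grey; dotted lines mark -1 and 1. The intervals of all 21 genes include 0, and Socs1 has the widest, from -1.85 to 0.52.

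Compared per length in the LPS group, Stat3 had the highest level, at 95.2 ± 11.4 FPKM (SD, n = 4). Pim1 followed at 80.0 ± 6.56, Jak1 at 63.9 ± 1.63 and Socs3 at 58.3 ± 12.4 FPKM. These are levels of mRNA per gene length, and among neighbours in this order the samples of Stat3 and Pim1 overlapped, as did those of Jak1 and Socs3, while Pim1 and Jak1 did not overlap in the LPS group. Socs1 was at 20.6 ± 2.72 FPKM and overlapped Jak2, which had a mean of 20.5 FPKM and ran from 19.1 to 21.4 FPKM. Socs2, Jak3 and Cish were at 9.89 ± 0.428, 8.71 ± 1.43 and 8.05 ± 0.657 FPKM, and each overlapped the next. Stat5a was lowest, at 3.58 ± 0.251 FPKM, and lay at the 44.3 percentile of mean FPKM among tested genes, where the other members lay between 60.8 and 95.7. In the LPS + Tan group the same quantity was 83.2 ± 16.8 FPKM for Stat3, 68.0 ± 12.1 for Pim1 and 13.1 ± 12.9 for Socs1 (SD, n = 4). The SD of Socs1 thus nearly reached its mean there, and was several times its SD in the LPS group. Members had at least 226 counts in a sample, the count of Socs1 in LPS + Tan replicate 1, so that counting error was at most 6.65% of a value and the spread between samples was the larger error.

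JAK1 is the kinase shared by the receptors of IL-6 family cytokines, of interferons and of common gamma chain cytokines. Jak1 was at 392, 380.4, 416 and 378 CPM in LPS replicates 1 to 4 and at 387, 400.1, 361 and 372 CPM in LPS + Tan replicates 1 to 4. The groups overlapped, and the log2 fold change of -0.04 had the interval -0.22 to 0.14 (95%). JAK2 serves the receptors of growth hormone, erythropoietin, GM-CSF and interferon gamma. Jak2 was at 212, 228, 244 and 224 CPM in the LPS samples and at 184, 198, 173 and 233 CPM in the LPS + Tan samples. LPS + Tan replicates 1, 2 and 3 were below every LPS sample and replicate 4 was among them, with a log2 fold change of -0.21 ± 0.10 (SE) and an adjusted p of 0.924 by edgeR. JAK3 binds the common gamma chain of lymphoid cytokine receptors. Jak3 ran from 31.9 to 43.5 CPM in the LPS samples and from 29.1 to 33.3 CPM in the LPS + Tan samples, a log2 fold change of -0.18 ± 0.11 (SE).

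STAT3 carries the signal of IL-6, IL-10 and G-CSF and is induced by itself. Stat3 was at 401, 411, 536 and 433 CPM in LPS replicates 1 to 4 and at 323, 496, 323 and 371 CPM in LPS + Tan replicates 1 to 4. LPS replicate 3 and LPS + Tan replicate 2 were the highest of their groups, and LPS + Tan replicates 1, 3 and 4 were below every LPS sample. The log2 fold change was -0.24 ± 0.16 (SE), with the interval -0.58 to 0.11 and an adjusted p of 0.931 by edgeR. STAT5A carries signals of IL-2, GM-CSF and prolactin. Stat5a was at 15.4, 16.0, 18.7 and 16.5 CPM in the LPS samples and at 16.7, 25.4, 16.9 and 15.1 CPM in the LPS + Tan samples. LPS + Tan replicate 2 alone was above every LPS sample, and the log2 fold change of 0.16 ± 0.16 (SE) turned to -0.03 without it.

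SOCS1 binds JAK kinases directly, is induced by interferon gamma, and limits interferon responses. Socs1 was at 25.8, 24.2, 33.9 and 28.3 CPM in LPS replicates 1 to 4 and at 5.56, 10.4, 10.3 and 44.6 CPM in LPS + Tan replicates 1 to 4. LPS + Tan replicates 1, 2 and 3 were all below the lowest LPS sample, and replicate 4 was above the highest. The log2 fold change was -0.67 ± 0.53 (SE), with the interval -1.85 to 0.52, and the adjusted p was 0.940 by edgeR.

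SOCS2 is a STAT5 target that restrains growth hormone signalling. Socs2 was at 127, 134, 139.6 and 125 CPM in the LPS samples and at 83.0, 130.3, 88.9 and 124 CPM in the LPS + Tan samples. LPS + Tan replicates 1 and 3 were the lowest, replicate 4 was just below every LPS sample and replicate 2 was among them. The log2 fold change was -0.30 ± 0.14 (SE), with the interval -0.63 to 0.02 and an adjusted p of 0.924 by edgeR.

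SOCS3 binds the gp130 receptor chain and JAK kinases and ends STAT3 signalling after IL-6. Socs3 was at 147, 157, 215 and 128 CPM in the LPS samples and at 141, 211, 137 and 115 CPM in the LPS + Tan samples. LPS replicate 3 and LPS + Tan replicate 2 were the highest of their groups, as in Jak1, Stat3, Stat5a, Socs2 and Cish. In every member but Jak3, LPS replicate 3 was the highest LPS sample. The log2 fold change of Socs3, -0.10 ± 0.20 (SE), became 0.07 when LPS replicate 3 was left out and 0.01 when LPS + Tan replicate 4 was. It was -0.19 when LPS replicate 4 and -0.30 when LPS + Tan replicate 2 was left out. CIS is a STAT5-induced inhibitor of cytokine receptors. Cish was at 36.0, 36.0, 37.8 and 30.6 CPM in the LPS samples and at 31.1, 39.6, 31.7 and 37.7 CPM in the LPS + Tan samples. The 4 LPS + Tan samples lay on both sides of the LPS mean, and the log2 fold change of -0.0032 had the interval -0.24 to 0.23 (95%).

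PIM1 is a serine/threonine kinase that promotes cell survival, and its gene is a target of STAT3 and STAT5. Pim1 was at 204, 212, 253 and 213 CPM in the LPS samples and at 146, 209, 154 and 222 CPM in the LPS + Tan samples. LPS + Tan replicates 1 and 3 were below every LPS sample, as for Socs2, while replicates 2 and 4 were among them. The log2 fold change was -0.27 ± 0.15 (SE), with the interval -0.60 to 0.05 and an adjusted p of 0.924 by edgeR.

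**Figure D2:**
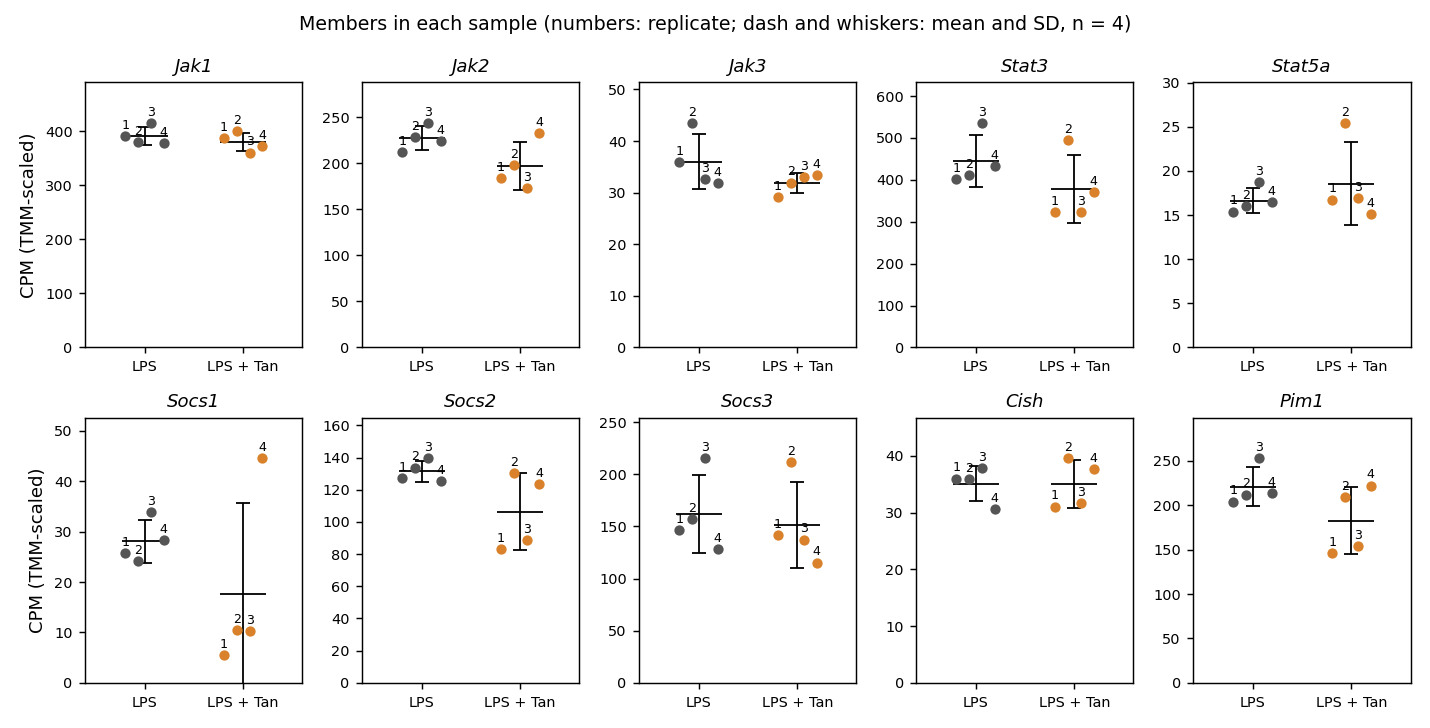
CPM of each member in every sample; each point is 1 sample with its replicate number, and dashes and whiskers are the mean and SD of 4 samples (each axis starts at 0, and the Socs1 whisker of the LPS + Tan group, 17.7 ± 18.1 CPM, is drawn only down to 0). Socs1 is at 5.56 to 10.4 CPM in 3 LPS + Tan samples and at 44.6 CPM in replicate 4, while Socs2 and Pim1 are lowest in LPS + Tan replicates 1 and 3.

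LPS + Tan replicate 4 was the highest sample in Socs1 and in Ifng. Ifng, the gene of interferon gamma, which was picked after its values were seen, was at 5.70, 3.54, 6.06 and 5.67 CPM in the LPS samples and at 0.959, 1.42, 1.63 and 13.9 CPM in the LPS + Tan samples. In Ifng, as in Socs1, LPS + Tan replicates 1, 2 and 3 were below every LPS sample and replicate 4 was above every LPS sample, so that the groups overlapped. Over all tested genes, LPS + Tan replicate 4 was far in log2 CPM from the other 3 samples of its group in 501 genes, or 3.19%, where the other samples of the series were so in 69 to 350 genes. Socs1 and Ifng were not among these genes in the LPS + Tan group, and what sets this sample apart was not tested.

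**Figure D3:**
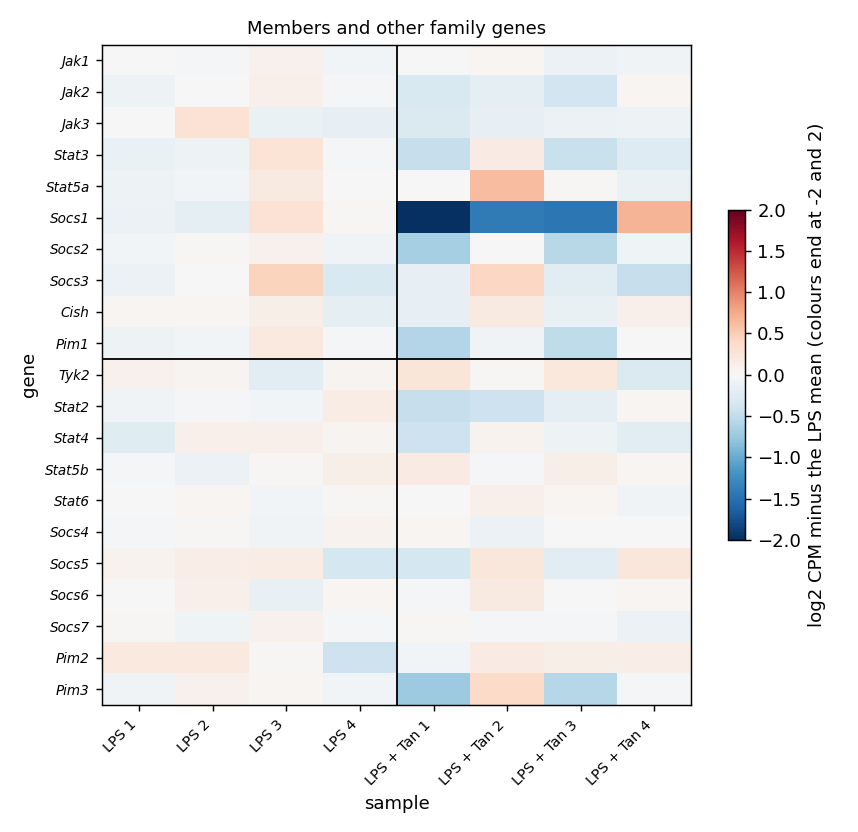
Log2 CPM minus the mean of the LPS samples for the 10 members and 11 other family genes (rows, from top to bottom) in the 8 samples (columns); blue is below and red above the LPS mean, and colours end at -2 and 2. Socs1 is blue in LPS + Tan replicates 1, 2 and 3 and red in replicate 4.

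Leaving out single LPS + Tan samples changed which members passed the unadjusted threshold. Without LPS + Tan replicate 4, 4 of 10 members were lower at an unadjusted p below 0.05, Jak2, Socs1, Socs2 and Pim1, against 4.56% of 15932 genes, and 0 were higher, against 4.78%. Socs1 then had a log2 fold change of -1.68 ± 0.23 (SE) and an adjusted p of 0.0782 by edgeR, and was the 1 member past the thresholds of the study, against 0.64% of genes. Its adjusted p ran from 0.0782 to 0.99994 over the alternatives that gave it a p. Without LPS + Tan replicate 4, Cxcl10, a chemokine gene, was the only gene at an adjusted p below 0.05 (0.00628% of genes), with a log2 fold change of -1.85 ± 0.17 (SE) and an adjusted p of 0.0456 by edgeR. With all samples Cxcl10 was at -0.75 ± 0.55 (SE), with overlapping groups and an adjusted p of 0.936 by edgeR. The log2 fold changes of Jak2, Socs2 and Pim1 were -0.30, -0.38 and -0.38 without LPS + Tan replicate 4. The CPM of Jak2 and Socs1 then did not overlap between the groups, which held for 9.21% of genes with that sample left out. Without LPS + Tan replicate 2, Stat3 and Socs2 were lower at an unadjusted p below 0.05, with log2 fold changes of -0.39 and -0.42, against 5.06% of 15917 genes, and 0 members were higher, against 5.15%. Both were then without overlap, as were 9.77% of genes. Leaving out any of the other 6 samples gave 0 members in either direction at that threshold, and in several fits the log2 fold changes came closer to 0 than with all samples. Socs1 was at -0.37 without LPS + Tan replicate 1 and at -0.48 without replicate 2 or 3 of that group. Stat3 was at -0.13 without LPS replicate 3 and at -0.17 without LPS + Tan replicate 1 or 3. Jak3 was at -0.08 without LPS replicate 2, Jak2 at -0.15 without LPS + Tan replicate 3, and Jak1 at -0.013 without LPS replicate 3. Without LPS + Tan replicate 1, Socs2 was at -0.20 and Pim1 at -0.18. A sample left out for standing apart is a choice made on the outcome, and each sample was left out in the same way.

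Settings of the test moved the calls of Socs1 and Socs2 as well. With limma-voom both were lower at an unadjusted p below 0.05, against 2.49% of genes, and Socs1, with a log2 fold change of -1.14, was also past the thresholds of the study, against 0.388%. The same held with the replicate number as a block, where 2.73% of genes were lower and 0.35% were lower past those thresholds, and the log2 fold changes were -1.14 for Socs1 and -0.33 for Socs2. Without a count filter Socs2 alone was lower, against 2.31% of genes. DESeq2 called 0 members in either direction and gave Socs1 no p with its cutoff for distant samples.

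To see which of the members known as STAT targets, with Stat3 itself, varied together between samples, 15 pairs of Stat3, Socs1, Socs2, Socs3, Cish and Pim1 were correlated over the 8 samples in log2 CPM, with exact two-sided permutation p over all 40320 pairings. These pairings ignored the groups, so that a difference between the groups can enter r and its p, and r within the groups has no p here. Pearson's r was positive for 14 pairs and ran from -0.13, for Socs1 and Socs3, to 0.96. How often pairs of other genes correlate in these samples is not given here, so that counts of pairs have no share beside them. For Socs2 and Pim1 r was 0.96 (exact permutation p = 0.00303, adjusted 0.0383 over 15 pairs) and Spearman's rho was 0.62 (exact permutation p = 0.115, adjusted 0.283). Within the groups, as deviations from the group means, r of this pair was 0.94, and without LPS + Tan replicates 1 and 3, the samples farthest from the median of Socs2, it was 0.63 over 6 samples, or 0.43 with sample totals alone. For Socs1 and Pim1 r was 0.84 (exact permutation p = 0.00548, adjusted 0.0383) and rho 0.90 (exact permutation p = 0.00456, adjusted 0.0543). It was 0.77 within the groups, and 0.47 without LPS + Tan replicates 1 and 3. With sample totals alone the samples farthest from the median of Socs1 were LPS + Tan replicates 1 and 2, and r without them was 0.87. For Stat3 and Socs2 r was 0.85 (exact permutation p = 0.00766, adjusted 0.0383) and rho 0.88 (exact permutation p = 0.00724, adjusted 0.0543). Here r was 0.79 within the groups and 0.79 without LPS replicate 3 and LPS + Tan replicate 1, and with sample totals alone it was 0.88 without LPS replicate 3 and LPS + Tan replicate 2. These 3 pairs were the only ones at an adjusted p below 0.05 for Pearson's r, 0 pairs were for Spearman's rho, and with counts scaled to sample totals alone 0 pairs were, with a lowest adjusted p of 0.0592. Without a share over pairs of all genes, these counts cannot be read as particular to the members. Stat3 and Pim1 had an r of 0.84 (exact permutation p = 0.0150, adjusted 0.0561), which was 0.66 without LPS replicate 3 and LPS + Tan replicate 1. Stat3 and Socs3 had an r of 0.76 and Socs1 and Socs2 one of 0.77, both with an adjusted permutation p of 0.0856. The former was 0.68 without LPS replicate 3 and LPS + Tan replicate 1, and 0.04 with sample totals alone without LPS replicate 3 and LPS + Tan replicate 2. The latter was -0.14 without LPS + Tan replicates 1 and 3, and 0.76 with sample totals alone without LPS + Tan replicates 1 and 2.

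Of 11 other JAK, STAT, SOCS and PIM family genes, all 11 were tested, 0 were called in either direction with all samples against 2.87% higher and 2.25% lower, and the median log2 fold change was -0.017, with 6 negative and 5 positive. Stat2, which takes part in type I interferon signalling, had a log2 fold change of -0.24 ± 0.12 (SE), and was lower at an unadjusted p below 0.05 without LPS + Tan replicate 4, at -0.35, and with the replicate block, at -0.25. Pim3, a kinase close to Pim1, was at 58.6, 127, 65.3 and 95.9 CPM in the LPS + Tan samples and at 92.3 to 104 CPM in the LPS samples, so that replicates 1 and 3 were again the lowest, and its log2 fold change was -0.17 ± 0.21 (SE). It was -0.02 without LPS + Tan replicate 1, -0.06 without replicate 3, and -0.41 and lower at that threshold without replicate 2. The other 9 family genes, Tyk2, Stat4, Stat5b, Stat6, Socs4, Socs5, Socs6, Socs7 and Pim2, had log2 fold changes between -0.16 and 0.07, and with sample totals alone the signs of Socs4, Socs5 and Socs7 turned.

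Upstream of the members, 29 of 32 listed cytokines of JAK-coupled receptors were in the tables and 17 were tested. Of these 1 was higher at an unadjusted p below 0.05, Ctf1 (cardiotrophin 1), with a log2 fold change of 0.48 ± 0.19 (SE), and 0 were lower, with a median of -0.11, against 2.87% and 2.25% of all tested genes. The number higher was 0 with the replicate block and without LPS replicates 1, 3 or 4 or LPS + Tan replicates 1 or 2. Of all genes, 397 of 15706 were higher with the block. Without LPS replicates 1, 3 and 4 these were 494 of 15910, 315 of 15922 and 463 of 15903. They were 268 of 15895 without LPS + Tan replicate 1 and 5.15% without replicate 2. The number of cytokines lower was 1 with DESeq2, limma-voom, no filter, the replicate block and limma on FPKM of tested genes, 1 without LPS replicates 2 or 4 and 2 without LPS + Tan replicates 2 or 4. Of all genes 2.49% were lower with limma-voom, 2.31% without a filter and 2.73% with the block. They were 5.06% and 4.56% without LPS + Tan replicates 2 and 4. Genes lower numbered 511 with DESeq2, 276 and 272 with limma on FPKM of tested genes, and 303 and 318 without LPS replicates 2 and 4. Csf3, the gene of G-CSF, which signals through STAT3, was next after Ctf1 in order of p. It was at 8.21, 10.3, 19.2 and 9.20 CPM in the LPS samples and 2.53, 12.5, 5.27 and 4.13 CPM in the LPS + Tan samples. LPS replicate 3 and LPS + Tan replicate 2 were the highest of their groups in Csf3, as in Jak1, Stat3, Stat5a, Socs2, Socs3 and Cish. Il22 had a log2 fold change of -1.38 ± 0.67 (SE) with as few as 3 counts in a sample. Of 38 tested receptors 1 was higher, Lifr, the receptor chain for LIF, with a log2 fold change of 0.34 ± 0.11 (SE), and 5 were lower, against 2.87% and 2.25% of all tested genes, with a median of -0.06 over the list. The median was 0.011 without LPS + Tan replicate 4 and -0.20 without replicate 2. The number lower was 1 with total counts alone and without LPS replicates 2 or 3, 2 without LPS + Tan replicate 3, 3 without LPS replicate 4, LPS + Tan replicate 1 or LPS + Tan replicate 4, and 6 without LPS + Tan replicate 2. Of all genes 4.56% were lower without LPS + Tan replicate 4 and 5.06% without replicate 2. With total counts alone 239 of 15706 genes were lower. Without LPS replicates 2, 3 and 4 these were 303 of 15890, 272 of 15922 and 318 of 15903. Without LPS + Tan replicates 1 and 3 they were 212 of 15895 and 299 of 15870. The number of receptors higher was 2 without LPS + Tan replicate 4 (4.78% of all genes) and with limma on FPKM of tested genes at both pseudocounts (644 and 639 of 15706 genes). With FPKM of all genes 3 receptors were higher and 3 lower, where 848 and 418 of 24584 genes were. The 5 lower with all samples were Il6st, Osmr, Il13ra1, Il15ra and Ghr. Of these Il6st encodes gp130. It was at 691 to 748 CPM in the LPS samples and at 481 to 658 CPM in the LPS + Tan samples. Its log2 fold change was -0.29 ± 0.11 (SE, adjusted p = 0.924 by edgeR). Of the 38 receptors, 3 were without overlap in CPM, as were 2.73% of all tested genes. Il6st and Ghr were the lower ones, and Lifr was higher. Lifr was at 65.8 to 82.8 CPM in the LPS samples and at 84.3 to 104 CPM in the LPS + Tan samples. Among the tested cytokines Ctf1 alone was without overlap, and it was higher. Among 22 other regulators of the pathway, such as phosphatases and ubiquitin ligase subunits, 0 were called with all samples. Of all tested genes 2.87% were higher and 2.25% lower there. Without LPS + Tan replicate 4, 2 regulators were higher and 1 lower (4.78% and 4.56% of all genes). Without LPS + Tan replicate 2, 1 was lower (5.06%), and 1 was higher with total counts alone and with limma on FPKM. Of all genes 653 were higher with total counts alone, and 644 and 639 with limma on FPKM of tested genes. Among these regulators the lowest p values belonged to Stam, Sh2b2 and Cblb, with log2 fold changes of 0.15, 0.35 and -0.21.

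Downstream, 4 of 20 STAT3 targets other than members were lower at an unadjusted p below 0.05, against 2.25% of all tested genes, and 0 were higher, against 2.87%, with a median of -0.24 and 18 negative values. Fos, an immediate early transcription factor, had a log2 fold change of -0.75 ± 0.19 (SE), Saa3, an acute phase protein, -0.38 ± 0.16, Timp1, a protease inhibitor, -0.63 ± 0.27, and Osmr, also in the receptor list, -0.45 ± 0.20. Leaving out a sample moved the number lower between 1 and 11 of 20. It was 1 without LPS replicate 3, LPS + Tan replicate 1 or LPS + Tan replicate 3, 2 without LPS replicate 4, 2 with limma on FPKM of tested genes, 1 with FPKM of all genes, and 11 without LPS + Tan replicate 2, where 5.06% of all genes were lower. Without LPS replicates 3 and 4, 272 and 318 of all genes were lower, and without LPS + Tan replicates 1 and 3, 212 and 299. With limma on FPKM of tested genes 276 and 272 were lower, and 418 of 24584 with FPKM of all genes. Of 11 tested STAT5 targets, Gadd45g, Igf1 and Ccnd2 were lower, with log2 fold changes of -0.61 ± 0.21, -0.94 ± 0.33 and -0.25 ± 0.10 (SE). With all samples 0 were higher, against 2.25% of all genes lower and 2.87% higher, and the median was -0.22. Leaving out a sample gave 2 to 4 of these targets lower, where 212 to 806 of all genes were. FPKM of all genes gave 1 lower, where 418 of 24584 genes were. Without LPS replicate 3, 1 was higher, where 315 of 15922 genes were. All of these calls are unadjusted, and 0 genes of these lists were at an adjusted p below 0.05 with all samples.

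Markers of cell types were set beside the members. Of the neutrophil (8 genes), macrophage and monocyte (10), T and NK cell (11), B cell (6), epithelial (9), fibroblast and smooth muscle (7), erythroid (5) and defining lung (4) lists, 0 genes were called at an unadjusted p below 0.05 with all samples, against 2.87% of all tested genes higher and 2.25% lower. Their median log2 fold changes were 0.07, 0.08, 0.06, -0.17, -0.06, -0.13, -0.55 and -0.03. Without LPS + Tan replicate 4 the medians were 0.05, 0.10, 0.16, -0.06, -0.14, -0.09, -0.53 and -0.14 in the same order. Without LPS + Tan replicate 2 the medians of these lists were 0.15, 0.10, -0.06, -0.13, -0.06, -0.09, -0.66 and -0.015. Per gene length (FPKM), their most abundant genes were S100a9, Ly6c2, Nkg7, Cd79b, Scgb1a1, Col3a1 and Hbb-bs, with Scgb1a1 again for lung. Of 8 endothelial genes Kdr and Tek were higher at that threshold and 0 were lower, against the same shares. Their median was 0.22, with 0.22 and 0.30 without LPS + Tan replicates 4 and 2, and Cldn5 was the most abundant in FPKM. Among 10 genes that respond to handling of tissue, Hspa1a, Hspa1b and Dnajb1 were higher and Fos and Egr1 lower, against the same shares. Hspa1a and Hspa1b were also past the thresholds of the study, against 0.35% of genes. The median of the handling genes was -0.30, with -0.30 and -0.35 without LPS + Tan replicates 4 and 2. Without LPS + Tan replicate 4, 2 macrophage and monocyte genes, 1 endothelial and 3 handling genes were higher, and 2 epithelial, 1 erythroid and 2 handling genes were lower, where 4.78% of all genes were higher and 4.56% lower. Without LPS + Tan replicate 2, 3 endothelial and 3 handling genes were higher, and 1 fibroblast and smooth muscle, 1 erythroid and 4 handling genes were lower, where the shares of all genes were 5.15% and 5.06%. The summed level of the 10 handling genes was 1071, 1144, 1236 and 1263 CPM in the LPS samples and 784, 1263, 779 and 1087 CPM in the LPS + Tan samples, with Dusp1 the most abundant in FPKM, so that the sum was low in LPS + Tan replicates 1 and 3, as were Socs2, Pim1 and Stat3. The list did not run one way there, since Hspa1a and Hspa1b were highest in those samples. The summed level of the STAT3 targets other than members was 13137.9 to 16415.9 CPM in the LPS samples. In LPS + Tan replicates 1 to 4 it was 9738.56, 13743.4, 9786.75 and 12867.5 CPM, so that it was also lowest in replicates 1 and 3. Both sums came mostly from few genes. In LPS + Tan replicate 1, Lcn2 and Saa3 of the STAT3 targets were at 3346 and 2876 CPM. Dusp1 and Jun of the handling genes were at 205 and 320 CPM in that sample. The part of tissue handling in the values of these members and targets was not tested.

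The members lie on 8 chromosomes in GRCm38, and Stat3 (chr11:100885098-100939540, minus strand), Stat5a (chr11:100859351-100885169, plus strand) and Stat5b are neighbours. The exons of Stat3 and Stat5a share 72 bases on opposite strands, and since it is not given whether counting used strand, reads there cannot be assigned, which concerns 0.756% of the exon bases of Stat3 and 1.01% of those of Stat5a. Stat5a and Stat5b share 8.21% of the 50-base windows of Stat5a transcripts, and Stat5a had 581 to 1001 counts beside 2830 to 3536 of Stat5b, so that part of its reads may have been split between both. Jak3 shares 7.55% of its exon bases with Insl3, which had at most 0.756% of the counts of Jak3, and Pim1 shares 14.5% with the antisense gene Gm26885, which had at most 0.689% of the counts of Pim1. Cish shares 7.46% with the antisense gene Gm17041 and 4.07% with Gm17040, for which no counts were used here. Of the windows of Socs2 4.19% also occur in Gm9847. Socs1, Socs3, Jak1, Jak2 and Pim1 share 0 windows of this length with another gene on the same strand.

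Promoter windows, of 250 bases before and 50 after the start of a gene, were taken from RefSeq (GRCm38.p6) for 9 of the 10 members, all but Socs2. The letters TTCNNNGAA, which STAT3 and STAT5 can bind and which read the same on both strands, were in the windows of 2 of these 9, Socs3 and Cish, against 8.30% of 32851 windows of this length. Members are counted here by gene and the shares by window, and Stat5a and Pim1 have 2 windows each. The same letters with 4 bases between, which STAT6 can bind, were in 0 of the 9, against 6.95% of windows. In Socs3 (chr11:117969504-117969528, minus strand), the match starts 154 bases before the RefSeq start, in an intron of a longer Socs3 transcript of GENCODE. It is shown with 8 bases on each side and the match in capitals.
Socs3: aaccagccTTCTTAGAAgggagggg
In Cish (chr9:107296659-107296667 and chr9:107296670-107296678, plus strand), 1 match begins at the RefSeq start and the other 11 bases after it. Both lie in an exon of Cish, whose GENCODE gene begins further upstream, at chr9:107296026, and are given without flanks.
Cish, first: TTCCTGGAA
Cish, second: TTCTTGGAA
Socs1 has neither motif in its window. Another motif, GAAANNGAAA, which factors of the interferon response can bind, was searched on both strands after these data were seen. It was found in the window of Socs1 alone among the members, against 3.44% of all windows, and also in those of Stat2 and Stat4. The 250 bases upstream of Socs1 (chr16:10785537-10785786, minus strand, in no annotated gene) are shown because they hold 2 overlapping matches, in capitals, which start 83 and 77 bases before the start.
Socs1: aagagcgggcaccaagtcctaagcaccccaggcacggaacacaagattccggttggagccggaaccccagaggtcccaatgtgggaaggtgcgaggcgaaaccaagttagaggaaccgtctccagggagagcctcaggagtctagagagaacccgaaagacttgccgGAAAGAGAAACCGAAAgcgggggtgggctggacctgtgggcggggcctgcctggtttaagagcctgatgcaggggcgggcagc
A match is a description of the letters and not of binding, which was not tested.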

How the data were processed

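RNA-seq of 8 mouse lung samples was used. The authors deposited raw read counts per gene, without normalization, and FPKM values for the same 24584 genes. The submitters' processing notes name the genome builds GRCm38 and mm10, while the aligner, counter, annotation and strand setting are missing from those notes. The methods and the labels name different extraction and library kits. Groups were taken from the labels, and 0 columns were left without a sample. Whether a sample is the lung of 1 mouse or a pool is not stated there either.

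The test across genes was run on the counts in edgeR 4.0.16 under R 4.3.3 (filterByExpr, TMM, quasi-likelihood test, no covariate), with Benjamini-Hochberg adjustment over 15706 genes, and standard errors were the log2 fold change divided by the square root of F. FPKM values deposited by the authors were used to compare levels between genes and, with limma 3.58.1, as an alternative. Scripts were tested on simulated data. DESeq2 1.42.0, limma-voom, other scalings, filters and pseudocounts, a replicate block and each sample left out were alternatives, and DESeq2 without its cutoff for distant samples was added after seeing the data.

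No 2 samples of a group were a repeated library, since squared deviations between counts were 7.83 to 22.4 times those of counting error. The members and lists were chosen with earlier results of these data known. Genes named are the 10 members, 11 further family genes, the 3 genes of lowest p in each pathway list and the most abundant gene of each cell type list. Named after their values were seen are Ifng, Cxcl10, Osmr, Il13ra1, Ghr, Kdr, Tek, Hspa1a, Hspa1b, Dnajb1, Egr1, Lcn2 and Jun. Sftpc and Apoa2 are named as markers of lung and liver. Insl3, Gm26885, Gm17041, Gm17040 and Gm9847 are named for bases or windows shared with members. A family gene and a pathway list of the plan are not reported. Gene positions, overlaps and shared windows came from GENCODE M21 (GRCm38) and promoters from RefSeq. Identity between member proteins was not analysed here, nor were Il3, Il9, Epo, Ins2 and Umod. Intervals and counting errors cover these samples and counting only.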

Additional observations from a re-analysis of the deposited data

Results flagged for a closer look

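In 132 groups of 4 samples, the distance in log2 CPM of the highest or lowest sample from its nearest neighbour was divided by the whole range of the group, and 7 had a share above the 95% critical value of Dixon's test. Chance gives about 1 in 20 groups where genes are not selected, but these groups include genes picked after their values were seen, Ifng and Cxcl10 among them, so that 7 cannot be compared with that share. What sets these samples apart was not tested.

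Among family genes, Tyk2 in LPS replicate 3 was at 29.6 CPM with the other LPS samples at 35.4 to 36.2 CPM (share 0.882), Stat4 in LPS replicate 1 was at 5.01 CPM with the others at 6.17 CPM or more (share 0.848), and Socs5 in LPS replicate 4 was at 60.7 CPM with the others at 81.7 to 85.7 CPM (share 0.861). Among pathway genes, Ifng in LPS replicate 2 was at 3.54 CPM with the others at 5.67 to 6.06 CPM (share 0.877). Cxcl10 in LPS + Tan replicate 4 was at 530.3 CPM with the other LPS + Tan samples at 87.6 to 106 CPM (share 0.895). The summed neutrophil level in LPS + Tan replicate 2 was 3843 CPM with the others at 5285 to 5594 CPM (share 0.849), and the summed macrophage and monocyte level in LPS replicate 4 was 533 CPM with the others at 769 to 811 CPM (share 0.873). In log2 CPM none of the 10 members was among these results, where Socs1 in the LPS + Tan group had a share of 0.697. In CPM without the log its share was 0.875, above the critical value, with LPS + Tan replicate 4 the highest, and the other members were below that value on both scales.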

How the results depend on the processing

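Over 19 alternatives, 18 of them planned and 1 chosen after seeing the data, 399 log2 fold changes of the 21 member and family genes were recomputed. Of these 349 kept their sign and, apart from Socs1 with DESeq2, which had no p, their side of the unadjusted threshold, 14 moved past it with the same sign and 36 changed sign. The cause was not tested.

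Members lower past the thresholds of the study numbered 1 with limma-voom and 1 with the replicate block, and 0 to 1 with each sample left out. Members lower at an unadjusted p below 0.05 numbered 1 without a filter, 2 with limma-voom, 2 with the replicate block and 0 to 4 with each sample left out. Members without overlap between groups numbered 0 to 2. LPS + Tan replicates 4 and 2 gave these higher counts when left out.

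Genes higher past the thresholds of the study numbered 113 with DESeq2, 116 with DESeq2 without its cutoff, which was chosen after seeing the data, 220 without a filter, 18 with at least 1 CPM in 4 samples, 5 with limma on log2(FPKM + 1), 19 with a pseudocount of 0.1, 5 with FPKM of all genes and 37 to 113 with each sample left out. In the same order the genes lower numbered 111, 112, 198, 23, 9, 21, 6 and 38 to 125. Genes higher at an unadjusted p below 0.05 numbered 848 with FPKM of all genes and 268 to 820 with each sample left out, and genes lower 569 without a filter and 212 to 806. At an adjusted p below 0.05 there were 35 genes with DESeq2, 35 without its cutoff, 2 with FPKM of all genes and 0 to 1 with each sample left out.

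Log2 fold changes turned positive with total counts alone for Cish (0.036), Socs4 (0.020), Socs5 (0.020) and Socs7 (0.0017). With log2(FPKM + 1), of tested or of all genes, they were 0.031, 0.017, 0.015 and 1.04e-05, and with the pseudocount of 0.1 they were 0.035, 0.019 and 0.016 for the first 3. With each sample left out the range was -0.034 to 0.24 for Stat5a, -0.30 to 0.071 for Socs3, -0.067 to 0.048 for Cish, -0.016 to 0.15 for Tyk2, -0.0079 to 0.047 for Stat6, -0.045 to 0.010 for Socs4, -0.12 to 0.080 for Socs5, -0.00016 to 0.081 for Socs6 and -0.046 to 0.14 for Pim2.

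Deviations from the group means over tested genes had r of 0.16, -0.05, -0.16 and 0.04 between samples with the same number in both groups. Only LPS replicate 1 had its highest r with the LPS + Tan sample of its own number. The labels do not say whether a number is shared, and these values cannot decide whether the numbers of the replicate block pair samples.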
